A study of Mus musculus with 12 samples.

Results

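Liver clears foreign chemicals, steroids, bilirubin and products of lipid oxidation largely by attaching glutathione or glucuronic acid to them. The genes described here encode the enzymes of both reactions. They were selected on their symbol, as glutathione transferases (Gsta, Gstk, Gstm, Gsto, Gstp, Gstt and Mgst) and UDP-glucuronosyltransferases (Ugt1a, Ugt2a, Ugt2b and Ugt3a), and on having at least 10 counts summed over the 12 libraries. Of the 27304 genes in the table, 44 had such a symbol and 41 of these reached the count minimum. The summed count of all groups together chose them, so the presence of a gene in the set is no result. Ugt1a2 stood just inside the minimum with 10 counts. Ugt1a10, Ugt2a1 and Ugt2a2 stood outside it with 0 counts over all libraries, which allows a level of up to 0.0167 CPM, counts per 1000000 counts (a floor of 3 counts, counting error only).

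The livers came from 12 mice, all lacking apolipoprotein E (Apoe-/-) and all fed the diet labelled HFD for 12 weeks. The controls were 3 Apoe-/- males and 3 Apoe-/- females, and the Ahr-null groups were 3 Apoe-/-AhR-/- males and 3 Apoe-/-AhR-/- females. The aryl hydrocarbon receptor (AhR, gene Ahr) is a ligand-activated transcription factor, and the series asks what its loss does to the liver. Beyond the weeks of diet, the labels give no age, and they name neither the strain, the allele nor a Cre driver. They list 1 liver per sample and do not say whether mice shared a litter or cage, so the p-values rest on the spread between these samples, which may in part be technical.

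Glutathione transferases join the thiol of glutathione to electrophiles. The alpha, mu, pi, theta and omega classes are soluble, the kappa enzyme lies in mitochondria and peroxisomes, and the Mgst enzymes sit in membranes. UDP-glucuronosyltransferases of the endoplasmic reticulum transfer glucuronic acid from UDP-glucuronic acid, and the Ugt1a enzymes differ in a first exon that is spliced to a common set of later exons. Ugt3a enzymes are known to use other sugar donors, so the name of the set holds for them only loosely. Several of these genes are known as targets of AhR or of NRF2, the main regulator of the response to electrophiles.

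Library totals ran from 9794253 to 18924880 counts. Ahr itself had 15.4, 25.0 and 20.1 CPM in control males, 14.7, 19.7 and 12.4 CPM in control females, 24.5, 20.2 and 23.9 CPM in Ahr-null males and 19.5, 16.3 and 13.7 CPM in Ahr-null females, so counts over the gene did not separate the genotypes. Whether the deleted part is among the counted exons cannot be read from gene counts. Cyp1a2, a liver target of AhR, ranged from 452 to 1170 CPM in controls and from 47.0 to 217 CPM in Ahr-null livers. Hepatocyte markers were present in every library. Their sum, in CPM of the unscaled total, was 11524 to 26760 in controls and 26849 to 78579 in Ahr-null livers, without overlap. Hnf4a, 1 of the 6 markers, is given here in scaled CPM, and its groups overlapped in both sexes. Its mean was 272 CPM in control males against 233 in Ahr-null males, and 253 in control females against 186 in Ahr-null females. The sum and these means are on different scales, so their directions cannot be set against each other. Ahr-null female replicate 1 stood apart: it correlated with the other Ahr-null females at 0.822 to 0.826, against 0.946 to 0.987 for the other replicate pairs. The 15 neuron and glia markers, none of them at 0 in all libraries, reached a sum of 461 CPM in it and 178 CPM in control male replicate 1, and of 13.5 to 25.5 CPM elsewhere. Values with and without these 2 libraries are set side by side for some of the results that moved with them. Other estimates moved too and are given with all libraries alone.

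Of the 41 genes, 37 passed the low-count filter and were tested with edgeR's quasi-likelihood test, with p-values adjusted over all 13641 genes tested by the Benjamini-Hochberg method. A gene is called here at an adjusted p under 0.05. Averaged over the sexes, 1.06% of all genes were called between genotypes. Among the conjugation genes Gstm3 rose, Gstt3 fell, and no other was called. The log2 fold changes, Ahr-null minus control, ran from -1.51 (Ugt1a5) to 2.87 (Gsta1), with 18 positive, 19 negative and a median of -0.16, beside 0.04 over all genes tested. Before adjustment, 14 of the 37 (37.8%) had p under 0.05, and 2088 of the 13641 (15.3%). The 4 genes that were not tested, Gsto2 (46 counts in all), Gstt4 (20), Ugt1a2 (10) and Ugt1a7c (40), had too few counts. The genes are not replicates of the genotypes: they share the same 12 livers, lie in clusters on 8 chromosomes and in part share sequence.

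**Figure D1:**
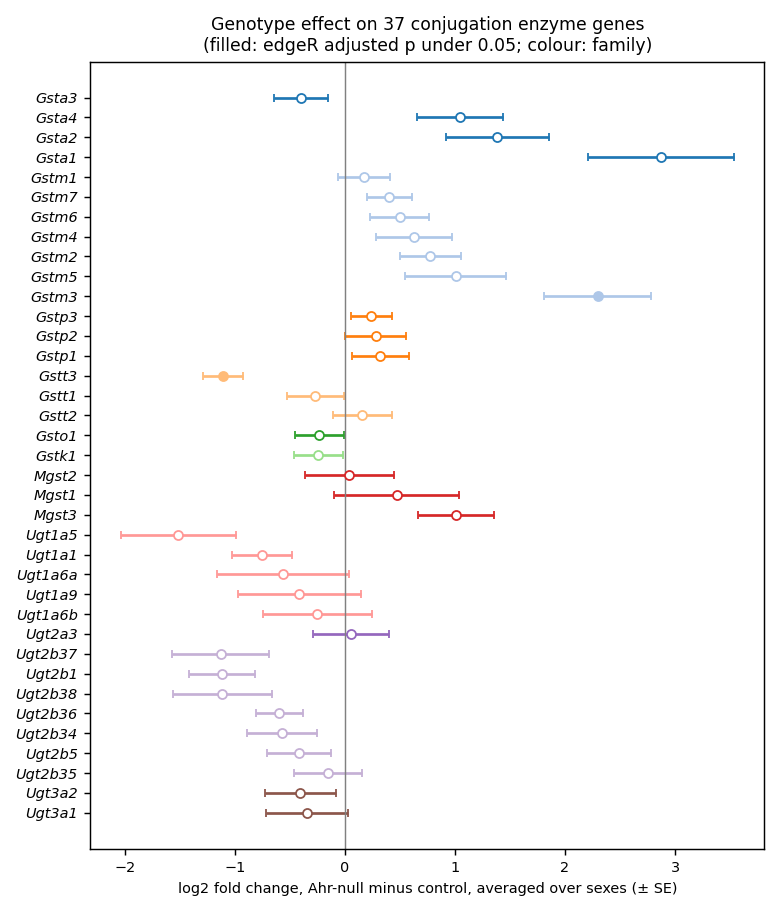
Log2 fold change, Ahr-null minus control and averaged over the sexes, of the 37 genes tested, by family (colour), as the edgeR estimate with its standard error (bar); filled points have an adjusted p under 0.05. The mu and alpha classes lie mostly to the right of 0, the Ugt1a, Ugt2b and Ugt3a genes to the left, and only Gstm3 and Gstt3 are filled.

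Of the single glutathione transferase genes, Gstm1 of the mu class had the highest mean level. Summed by family, the pi class stood above the mu class in some males, such as control male replicate 1 (1336 against 1018 CPM). It stood below the mu class in the other males and in all females. Per kilobase of exon, Gstm1 reached 777 CPM as a mean of the 12 libraries, ahead of the pi class genes Gstp1 (379.7 CPM per kb) and Gstp2 (376), while Gstm5, the form known best from brain and testis, had 3.03. Gstm3 (ENSMUSG00000004038, chromosome 3, 107963696 to 107969283, GRCm38), a mu class enzyme of the same chromosome 3 cluster, was the 1 member that rose. It had 17.6, 39.2 and 27.5 CPM in males with Ahr and 198, 25.1 and 289 CPM in those without. In females it had 29.8, 35.9 and 23.3 CPM in controls and 143, 159 and 51.5 CPM without Ahr. The Ahr-null females all lay above the control females. Among Ahr-null males, replicates 1 and 3 lay far above every control, and replicate 2 lay within the range of the control males.

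Averaged over the sexes, Gstm3 differed on the log2 scale by 2.30 ± 0.49 (SE, edgeR adjusted p = 0.0429), a 4.91-fold difference. The call was lost in 10 of the 12 fits that left out 1 library: it held only without Ahr-null male replicate 2 (adjusted p = 0.00358) or Ahr-null female replicate 3 (0.0469), and without any other library the adjusted p was 0.0523 to 0.17. The calls over all genes varied too: 144 with all libraries, and 288 and 103 in the 2 fits that kept the Gstm3 call. In the other fits they ran from 6 to 71, except for 663 without Ahr-null female replicate 1. Leaving out both libraries with neural transcripts gave 2.11 ± 0.60 for Gstm3 (SE, edgeR adjusted p = 0.0952). The estimate itself was positive in every fit tried, between 1.93 and 2.91. A stretch before the outermost annotated transcript start of Gstm3 (GRCm38.p6, chr3:107969284-107969424, minus strand) is shown 5′ to 3′ because the gene carries a call. It ends at the GENCODE gene edge, and the RefSeq start, 107969174, lies 109 bases further on. Neither an XRE core (GCGTG, to which AhR binds with its partner ARNT) nor an antioxidant response element (ARE, TGACNNNGC), searched on both strands, was found in the 300-base window around the RefSeq start.

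Gstm3 upstream: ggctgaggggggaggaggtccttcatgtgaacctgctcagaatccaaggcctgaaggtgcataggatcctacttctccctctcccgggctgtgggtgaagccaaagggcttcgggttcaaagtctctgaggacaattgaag

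None of the other 6 mu class genes was called. All had positive averaged estimates, from 0.17 to 1.01, also under scaling by library size alone. Gstm1 had 929, 1334 and 1012 CPM in control males, 1324, 928 and 1445 CPM in males without Ahr, 1064, 939 and 1179 CPM in control females and 1453, 1279 and 841 CPM in Ahr-null females, and the groups overlapped (0.17 ± 0.23, edgeR adjusted p = 0.791). Gstm5 had 1.93, 2.62 and 0.999 CPM in control females and 16.7, 2.59 and 3.70 CPM in Ahr-null females, where replicate 1 alone stood high (2.04 ± 0.66, edgeR adjusted p = 0.216 in females). Without the 2 libraries that estimate was 0.80 ± 0.43 (SE, edgeR adjusted p = 0.293). Replicate 1 also held the neural markers, and their part in its Gstm5 value was not tested. Gstm3 and Gstm1 share sequence: 9.83% of the 50-base windows of Gstm3 transcripts also occur in Gstm1, so some reads of one could be counted for the other. Gstm2, Gstm4, Gstm6 and Gstm7 had averaged estimates between 0.40 and 0.78.

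In the alpha class, Gsta1 and Gsta2 form a near-identical pair on chromosome 9, Gsta4 next to them is known for conjugating the lipid oxidation product 4-hydroxynonenal, and Gsta3 on chromosome 1 is known in mice for detoxifying aflatoxin. None was called by edgeR on the TMM scale with all 12 libraries. DESeq2 called Gsta1 higher averaged over the sexes, where it called 3.76% of genes, and in females, where it called 3.03%. Gsta1 (ENSMUSG00000074183, chromosome 9, 78230656 to 78242684, GRCm38) had the largest averaged estimate of all members, 2.87 ± 0.66 (SE, edgeR adjusted p = 0.0595). Its levels were 1.85, 4.88 and 3.95 CPM in males with Ahr and 25.2, 0.853 and 46.5 CPM in those without. They were 2.97, 4.25 and 2.25 CPM in control females and 37.7, 28.4 and 8.12 CPM in Ahr-null females. As with Gstm3, Ahr-null male replicate 2 was low, here below every control, and the Ahr-null females all lay above the control females. Leaving out that male brought the adjusted p to 0.00366, and leaving out any other single library gave 0.0662 to 0.212.

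Gsta2 and Gsta4 had the same order of libraries at their extremes: Ahr-null male replicate 3 was the highest of the 12 and Ahr-null male replicate 2 the lowest. Gsta2 had 10.4, 1.40 and 27.1 CPM in Ahr-null males and 15.5, 11.7 and 13.8 CPM in Ahr-null females, against 3.37, 6.58 and 4.40 CPM and 5.04, 6.55 and 4.83 CPM in the controls. Its averaged estimate was 1.38 ± 0.47 (SE, edgeR adjusted p = 0.188). For Gsta4 the estimate was 1.04 ± 0.39 (SE, edgeR adjusted p = 0.226), with 12.7, 4.19 and 31.3 CPM in Ahr-null males and 5.56, 11.5 and 7.20 CPM in control males. Gsta3 was by far the most abundant of the class per length, 39.3 CPM per kb against 14.6 for Gsta1. Its averaged estimate was negative, -0.40 ± 0.25 (SE, edgeR adjusted p = 0.479), and turned positive under scaling by library size alone. Its 3 Ahr-null males (102, 119 and 165 CPM) lay below the 3 control males (183, 282 and 199 CPM), while the females overlapped.

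**Figure D2:**
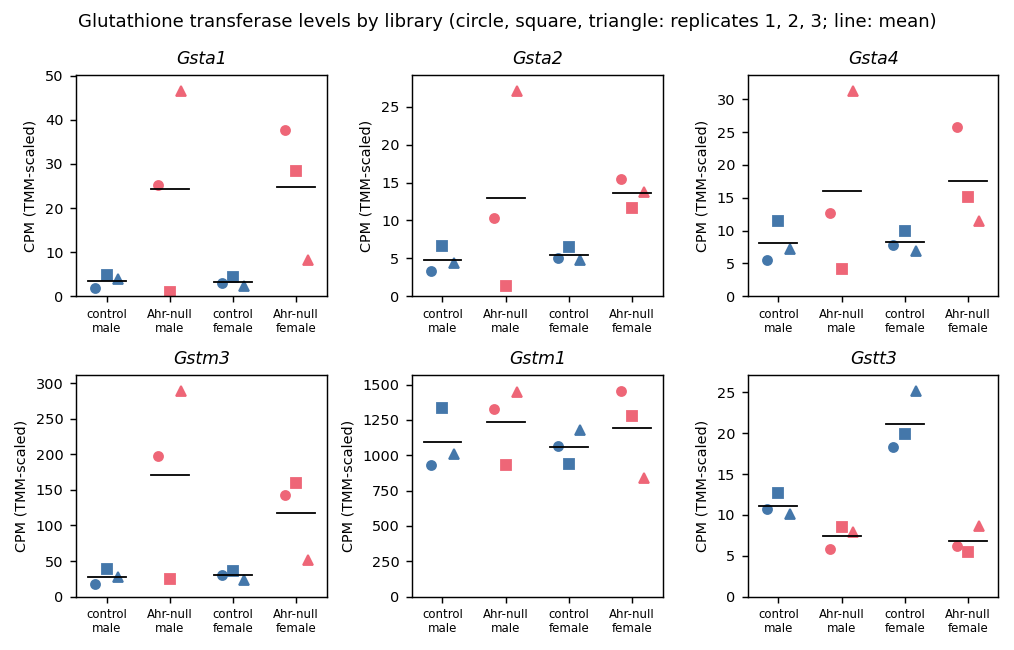
TMM-scaled CPM (vertical axis, linear from 0) of 6 glutathione transferase genes in each of the 12 livers, by group of 3; lines are group means, and circle, square and triangle are replicates 1, 2 and 3, which pair nothing across groups. The square among Ahr-null males is low for Gsta1, Gsta2, Gsta4 and Gstm3, and for Gstt3 all Ahr-null livers lie below the controls of their sex.

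The reads of Gsta1 and Gsta2 cannot be kept fully apart. Of the 50-base windows of Gsta1 transcripts, 44.6% also occur in Gsta2, and 32.9% of those of Gsta2 occur in Gsta1. The ratio of Gsta1 to Gsta2 counts was 0.466 to 0.899 in the controls. Without Ahr it was 2.43, 0.611 and 1.72 in males and 2.43, 2.43 and 0.588 in females. The ratio was above 1 in the 4 livers with the highest Gsta1 levels, all of them Ahr-null. How reads that fit both genes were assigned is not given in the sources used here.

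The starts of both genes are shown because Gsta1 had the largest estimate and the pair carries an XRE core near the start. In their RefSeq windows of 300 bases, 232 of 289 aligned positions were identical (80.3%). The 150 bases before the outermost annotated transcript start inside each window follow, 5′ to 3′. For Gsta2 these bases lie within the annotated gene, whose 5′ edge is at 78355788. They end 13 bases (Gsta1) and 23 bases (Gsta2) before the RefSeq starts, 78230669 and 78347145, with capitals for bases that differ from the partner in the alignment or have no counterpart there (Gsta1, chr9:78230506-78230655, plus strand; Gsta2, chr9:78347169-78347318, minus strand; GRCm38.p6).

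Gsta1 upstream: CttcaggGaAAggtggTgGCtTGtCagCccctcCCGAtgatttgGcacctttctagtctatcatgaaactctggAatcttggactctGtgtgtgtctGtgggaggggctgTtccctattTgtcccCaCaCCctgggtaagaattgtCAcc
Gsta2 upstream: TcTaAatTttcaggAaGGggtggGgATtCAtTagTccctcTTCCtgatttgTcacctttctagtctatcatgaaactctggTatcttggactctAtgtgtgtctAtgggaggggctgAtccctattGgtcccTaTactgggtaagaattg

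The XRE core is not in these stretches. It begins 2 bases before the RefSeq start of Gsta1 and 7 before that of Gsta2, inside annotated transcripts. Around the core, in capitals, the 30 bases of Gsta1 (chr9:78230655-78230684, plus strand) and Gsta2 (chr9:78347135-78347164, minus strand) were identical at 29 positions.

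Gsta1 XRE core: cttactaaaggaGCGTGcacactcctctgg
Gsta2 XRE core: cttactaaagtaGCGTGcacactcctctgg

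RefSeq windows of 300 bases, 250 before and 50 after the start, were found for 37 of the 41 genes. An XRE core stood in the windows of 8 of them (21.6%): Gsta1, Gsta2, Gstm1, Gstm5, Gstp1, Gstp3, Mgst3 and Ugt1a5. Over all 27025 genes with windows the share was 35.2%. An ARE stood in 4 (10.8%), Gsta3, Gstm5, Gstm7 and Mgst1, beside 14.0% of all genes. These are matches of letters in a short window and not sites of binding.

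The theta class held the member that fell. Gstt3 (ENSMUSG00000001665, chromosome 10, 75774115 to 75781414, GRCm38), 1 of 4 theta class genes in a cluster on chromosome 10, had 10.7, 12.6 and 10.1 CPM in males with Ahr and 5.88, 8.53 and 7.85 CPM in those without. In females it had 18.4, 19.9 and 25.1 CPM in controls and 6.25, 5.47 and 8.67 CPM without Ahr. The groups did not overlap in either sex, which held for no other member and for 2.9% of all genes tested. Averaged over the sexes, the log2 fold change came to -1.11 ± 0.18 (SE, edgeR adjusted p = 0.0148), a level 2.16-fold lower. The 3 control females lay above all other livers, and the Ahr-null males and females overlapped.

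In females alone, where 0.161% of all genes were called, Gstt3 was the 1 member called, at -1.63 ± 0.26 (SE, edgeR adjusted p = 0.0405). In males the estimate was -0.59 ± 0.25 (SE, edgeR adjusted p = 0.807). The difference between these effects was 1.05 ± 0.36 (SE, edgeR adjusted p = 0.883), so the larger value in females was not shown to differ from that in males. Leaving out 1 library kept the averaged estimate between -1.22 and -1.03 and ended the call in 6 of the 12 fits, without control male replicate 2, each control female, or Ahr-null male replicate 1 or 3 (adjusted p = 0.0504 to 0.0741). In those 6 fits 6 to 17 of all genes were called, and 33 to 663 in the others, against 144 with all libraries. In females the call ended in 10 of the 12, all but those without Ahr-null male replicate 2 or Ahr-null female replicate 1 (adjusted p up to 0.185). There 3 to 5 of all genes were called in those 10 fits, against 22 with all libraries. Under scaling by library size alone the averaged estimate was -0.64 with an adjusted p of 0.0946. Of the exon bases of Gstt3, 13.6% overlap another annotated gene. The bases just upstream of 1 of its 2 RefSeq starts (75781414; GRCm38.p6, chr10:75781415-75781564, minus strand) are shown because of its call, and neither motif was found there.

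Gstt3 upstream: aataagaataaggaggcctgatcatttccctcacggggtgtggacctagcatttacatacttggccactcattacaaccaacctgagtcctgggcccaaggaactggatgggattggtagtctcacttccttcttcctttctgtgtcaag

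The neighbours of Gstt3 were not called. Gstt1, which is known to act on small halogenated compounds, was the most abundant theta class gene (86.2 CPM per kb, against 20.5 for Gstt2 and 3.02 for Gstt3). Its averaged estimate was -0.27 ± 0.26 (SE, edgeR adjusted p = 0.682). Gstt2 had 81.4, 67.4 and 63.4 CPM in control females and 128, 105 and 173 CPM in Ahr-null females. These did not overlap, whereas its males did (62.3, 119 and 63.0 CPM against 73.4, 28.5 and 56.7 CPM). The estimates were 0.94 ± 0.38 in females and -0.62 ± 0.38 in males (SE), with a difference of -1.55 ± 0.53 (SE, edgeR adjusted p = 0.883).

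Gstp1 and Gstp2, the pi class genes that are known to be higher in male than in female mouse liver, were not called between genotypes. Gstp1 had 745, 646 and 718 CPM in males with Ahr and 599.7, 1181 and 1219.7 CPM in those without, against 339.7, 267 and 322 CPM and 296, 491 and 229.9 CPM in females. The averaged genotype estimates were 0.32 ± 0.26 for Gstp1, 0.28 ± 0.28 for Gstp2 and 0.24 ± 0.19 for Gstp3 (SE, edgeR adjusted p = 0.609, 0.688 and 0.594). Gstp1 and Gstp2 share 51.0% of the 50-base windows of Gstp1, and their counts stood at a ratio of 1.22 to 1.69 in all libraries, so they are best read as a pair. Gstp3 had 19.5, 25.6 and 25.1 CPM in males with Ahr and 35.2, 35.7 and 34.8 CPM in those without, which did not overlap, and its females overlapped.

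The remaining glutathione transferases held no call. Gsto1, an omega class enzyme known for reducing dehydroascorbate, had an averaged estimate of -0.23 ± 0.22 (SE, edgeR adjusted p = 0.673), and Gstk1 of -0.24 ± 0.22 (SE, edgeR adjusted p = 0.661). Both turned positive under scaling by library size alone. Mgst1, the abundant membrane enzyme (177 CPM per kb), had 313, 460.1 and 355 CPM in control males, 190.2, 219 and 278 CPM in control females, 177, 256 and 640.1 CPM in Ahr-null males and 1186, 76.4 and 122 CPM in Ahr-null females. Ahr-null female replicate 1 was the highest of the 12 livers and the other Ahr-null females were the lowest, and the averaged estimate was 0.47 ± 0.57 (SE, edgeR adjusted p = 0.755). Its direction turned without the 2 libraries, to -0.68 ± 0.33 averaged (SE, edgeR adjusted p = 0.253) and from 1.01 to -1.20 in females. Mgst3 was also highest in that library: 100.1, 23.0 and 37.3 CPM in Ahr-null females against 25.4, 15.7 and 12.1 CPM in control females (1.01 ± 0.34, edgeR adjusted p = 0.188 averaged, and 0.53 ± 0.24 without the 2 libraries). Mgst2 was scarce, at 0.182 CPM per kb and 0.673 CPM.

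All 7 Ugt2b genes, which encode enzymes for steroids, bile acids and drugs and lie together on chromosome 5, had negative averaged estimates, from -1.13 to -0.16, with 2 of the 7 positive under scaling by library size alone. None was called by edgeR with all 12 libraries between genotypes on that scale or on the TMM scale. DESeq2 called Ugt2b1 lower, averaged over the sexes (beside 3.76% of genes) and in females (beside 3.03%). Ugt2b5 (93.4 CPM per kb) and Ugt2b36 (83.8) were the most abundant, and Ugt2b38 (1.25) the least. Ugt2b1 had the lowest p of the family, -1.12 ± 0.30 (SE, edgeR adjusted p = 0.106). Its levels were 107, 111 and 79.9 CPM in males with Ahr and 27.5, 75.6 and 86.7 CPM in those without. In females they were 35.3, 40.6 and 61.2 CPM in controls and 23.1, 11.1 and 11.5 CPM without Ahr. The Ahr-null females all lay below the control females, and among the males replicate 1 was the lowest by far while replicate 3 lay within the control range.

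**Figure D3:**
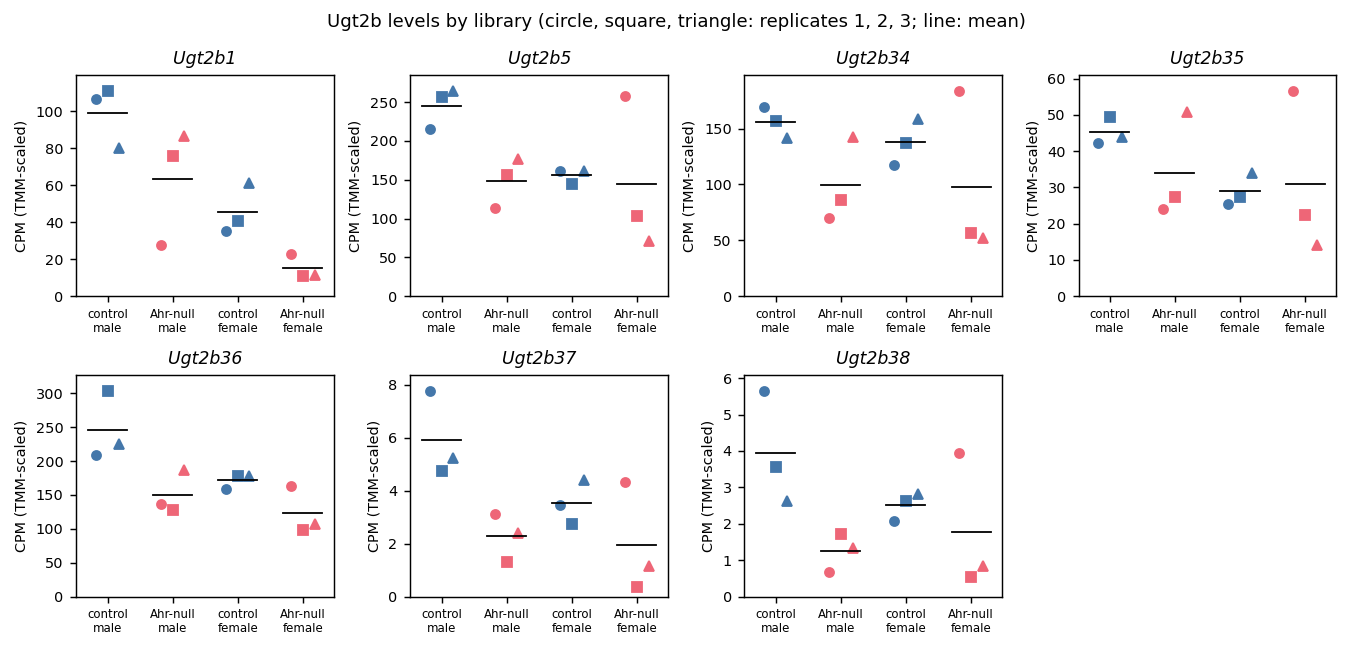
TMM-scaled CPM (vertical axis, linear from 0) of the 7 Ugt2b genes in each liver, by group of 3; lines are group means, and circle, square and triangle are replicates 1, 2 and 3. Among Ahr-null females the circle, replicate 1, lies well above the square and triangle for each of these genes, and Ugt2b1 is the 1 gene for which it lies below all control females.

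The family was called or not depending on Ahr-null female replicate 1. For Ugt2b5 it had 258 CPM, against 103 and 71.2 CPM in replicates 2 and 3 and 161, 145 and 161 CPM in control females. For Ugt2b34 it had 184 CPM, against 56.5 and 52.1 CPM and 117, 137 and 159 CPM in control females. Without this library and control male replicate 1, 3.14% of 13768 genes were called between genotypes. Gstt3 fell there and so did 6 of the 7 Ugt2b genes: Ugt2b1 (-1.29 ± 0.29), Ugt2b34 (-0.94 ± 0.22), Ugt2b36 (-0.76 ± 0.19), Ugt2b37 (-1.63 ± 0.32), Ugt2b38 (-1.58 ± 0.31) and Ugt2b5 (-0.81 ± 0.20; SE, edgeR adjusted p = 0.0158 to 0.0479). Ugt2b35 was not called (-0.54 ± 0.22, edgeR adjusted p = 0.193). Leaving out Ahr-null female replicate 1 alone gave the same 7 calls, beside 4.78% of 13877 genes. With both libraries left out and scaling by library size alone, all 7 Ugt2b estimates stayed negative and 3 were called, beside 13.8% of all genes.

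Within sexes the Ugt2b values were as follows. In males, 0.0367% of all genes were called and no member was. The groups did not overlap there for 4 of the 7, Ugt2b5, Ugt2b36, Ugt2b37 and Ugt2b38, beside 13.9% of all genes. All 7 estimates were negative, from -1.68 to -0.41. In females 6 were negative (all 7 without the 2 libraries, from -2.18 to -0.65). Ugt2b1 (-1.59 ± 0.43, edgeR adjusted p = 0.16) was the 1 whose groups did not overlap there, beside 19.1% of all genes. Without the 2 libraries, 1.71% of genes were called in females, among them Gstt3, Ugt2b1 (-1.996 ± 0.44) and Ugt2b37 (-2.18 ± 0.49) as lower (SE, edgeR adjusted p = 0.0423 and 0.0415 for the last 2). Ugt2b37 had only 4.32, 0.361 and 1.16 CPM in Ahr-null females and 3.45, 2.73 and 4.41 CPM in control females. Ugt2b5, Ugt2b37 and Ugt2b38 share sequence, with 34.1% of the 50-base windows of Ugt2b38 also in Ugt2b5, so their split is uncertain. The summed Ugt2b counts had an averaged estimate of -0.54 ± 0.27 (SE, edgeR adjusted p = 0.374), and of -0.82 without Ahr-null female replicate 1 (adjusted p = 0.0339).

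The Ugt1a genes were read from few counts, between 63 and 359 per library over all 7 of them. Their exons overlap: 50.3 to 60.6% of the exon bases of each gene lie in another gene, and how reads of the common exons were counted is not given in the sources used here. Neither Ugt1a levels nor their order can therefore be taken as those of the enzymes. Ugt1a1, which conjugates bilirubin, had 1.09, 1.47 and 1.47 CPM in control males, 0.631, 0.776 and 0.632 CPM in males without Ahr, 3.66, 2.84 and 2.997 CPM in control females and 2.48, 1.26 and 2.93 CPM in Ahr-null females (-0.75 ± 0.27, edgeR adjusted p = 0.205 averaged). Ugt1a6a, a phenol-conjugating form and a known AhR target, varied widely in each group: 3.20, 13.9 and 4.97 CPM in control males, 11.1, 1.75 and 13.1 CPM in control females, 2.09, 6.59 and 3.71 CPM in Ahr-null males and 0.827, 6.68 and 13.9 CPM in Ahr-null females. Its averaged estimate was -0.56 ± 0.60 (SE, edgeR adjusted p = 0.713). The groups overlapped in both sexes.

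Ugt1a5 had the most negative estimate of all members, and it came from the females. Control females had 1.17, 1.20 and 2.25 CPM and Ahr-null females 0.184, 0.0601 and 0.276 CPM, which sums to 55 and 8 counts. Males had 11 counts in the controls and 19 without Ahr. The estimates were -3.09 ± 0.72 (SE, edgeR adjusted p = 0.115; called by DESeq2) in females and 0.06 ± 0.72 (SE, edgeR adjusted p = 1) in males, and their difference was 3.15 ± 1.03 (SE, edgeR adjusted p = 0.883). The DESeq2 call of Ugt1a5 in females stood beside 3.03% of genes. Of the 5 Ugt1a genes tested, all had negative averaged estimates, and 2 turned positive under scaling by library size alone. The summed Ugt1a counts gave -0.61 ± 0.35 (SE, edgeR adjusted p = 0.441).

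Ugt2a3 and the Ugt3a pair held no call. Ugt2a3, a bile acid-conjugating form of the same chromosome 5 region, had an averaged estimate of 0.05 ± 0.34 (SE, edgeR adjusted p = 0.965). Ahr-null female replicate 1 was its highest liver, with 57.8 CPM against 13.8 and 17.1 CPM in the other Ahr-null females, and without the 2 libraries the estimate was -0.47 ± 0.23 (SE, edgeR adjusted p = 0.265). Averaged, Ugt3a1 had -0.35 ± 0.37 (SE, edgeR adjusted p = 0.714) and Ugt3a2 -0.41 ± 0.32 (SE, edgeR adjusted p = 0.597), both positive under scaling by library size alone. Without the 2 libraries the values were -0.74 ± 0.30 for Ugt3a1 and -0.75 ± 0.25 for Ugt3a2 (SE, edgeR adjusted p = 0.193 and 0.113). Ugt3a2 had 33.4, 36.5 and 23.3 CPM in males with Ahr and 13.7, 20.3 and 31.5 CPM in those without.

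Counts were also summed over each family, since such a sum does not depend on how counted reads were split among its members. Reads discarded for fitting several genes would be missing from it. The sums gave no call for any of the 11 families in any of the 6 comparisons. The averaged genotype estimates of the sums ran from -0.61 (Ugt1a) to 0.50 (Mgst). The alpha class sum, in which Gsta3 dominates, was at -0.06, and the mu class sum, in which Gstm1 dominates, at 0.32. Scaling by library size alone moved the median of all genes to 0.53, so all directions here are relative to the TMM scale, on which that median is 0.04. On that other scale 28 members were positive and 9 negative, and 8 rose, beside 7.72% of all genes: Gsta1, Gsta2, Gsta4, Gstm2, Gstm3, Gstm5, Gstm7 and Mgst3.

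**Figure D4:**
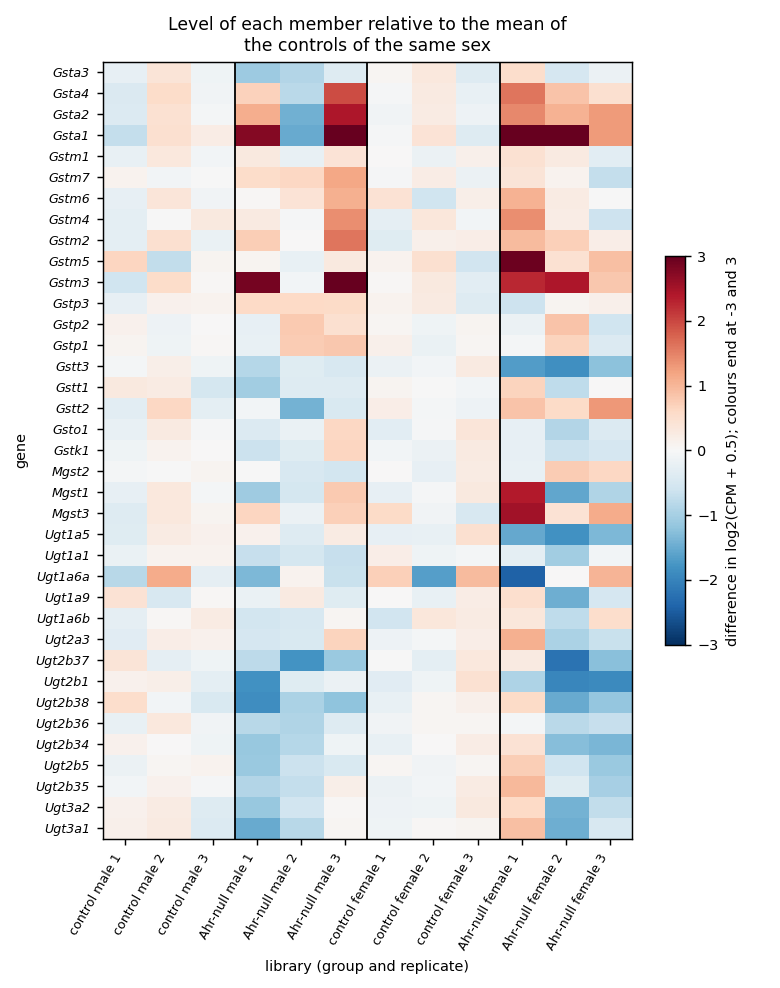
Level of the 37 genes (rows, by family) in each of the 12 livers (columns), as the difference in log2(CPM + 0.5) from the mean of the 3 controls of the same sex; red is higher, blue lower, and colours end at -3 and 3. Ahr-null female 1 is red for most genes, Gsta1 and Gstm3 are dark red in 4 of the 6 Ahr-null columns, and the Ugt2b rows are mostly blue in the other Ahr-null columns.

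The Ahr-null livers of a sex did not shift together. Ahr-null female replicate 1 had 24 of the 37 genes above all 3 control females and 8 below all of them, while replicates 2 and 3 had 10 above each and 20 and 21 below. Among males, replicates 1 and 2 had 8 and 5 genes above all control males and 21 and 23 below, while replicate 3 had 19 above and 9 below. Over all genes tested, the shares above ran from 25.8 to 40.0% and the shares below from 25.9 to 41.3% in these 6 livers. Markers of other cells also differed between them. The 5 stellate cell markers summed to 667, 239 and 543 CPM in Ahr-null males and 1157, 469 and 358 CPM in Ahr-null females, against 203 to 351 CPM in controls. The 6 cholangiocyte markers summed to 85.7, 42.3 and 126 CPM in Ahr-null males and 292, 104 and 44.4 CPM in Ahr-null females, against 21.8 to 69.6 CPM in controls. Ahr-null male replicate 2, the low one for Gstm3 and Gsta1, was the Ahr-null male with the lowest sums of both lists. Its low sums were not confined to these 2 lists. In Ahr-null males the Kupffer cell markers summed to 410, 179 and 343 CPM and the endothelial markers to 176, 134 and 157 CPM. The hepatocyte markers summed to 33582, 26849 and 59263 CPM there, and the neuron and glia markers were also lowest in replicate 2. Replicate 1 was the lowest for the 2 lists that follow. The 6 pericentral hepatocyte markers summed to 873, 1131 and 1747 CPM in Ahr-null males and 1592, 534 and 688 CPM in Ahr-null females, against 1114 to 2250 CPM in controls. The 4 red blood cell markers found summed to 147, 277 and 979 CPM in Ahr-null males and 311, 239 and 240 CPM in Ahr-null females, against 51.9 to 183 CPM in controls. On the unscaled total, the sum of hepatocyte markers was higher in all 6 Ahr-null livers than in all controls, as given above. Marker sums were not put on the TMM scale of the member levels. The TMM factors, by which scaled CPM are divided, were 0.579 to 1.11 in controls and 0.944 to 1.53 in Ahr-null livers. The lack of overlap is thus stated for the unscaled total alone. None of these markers was at 0 in all libraries. Their part in the values above was not tested, and in whole liver fewer cells of a type and less RNA per cell cannot be told apart.

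Sex differences, male minus female, called none of the members in controls, where 0.352% of all genes were called, nor in Ahr-null livers, where 0.279% were. At an unadjusted p under 0.05 there were 7 and 9 members (18.9 and 24.3%), beside 5.79 and 8.68% of all genes. DESeq2 called 2 (Gstp1 and Gstt3, beside 0.972% of genes) and 6 (Gstp1, Gstp2, Gstt2, Mgst3, Ugt1a1 and Ugt2b1, beside 1.47%), and limma-voom 0 and 0. In controls the groups did not overlap for 8 members higher and 4 lower in males, beside 18.6% of all genes, and without Ahr for 4 higher and 3 lower, beside 11.2%. The members' counts are thus read against a sizeable background.

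**Figure D5:**
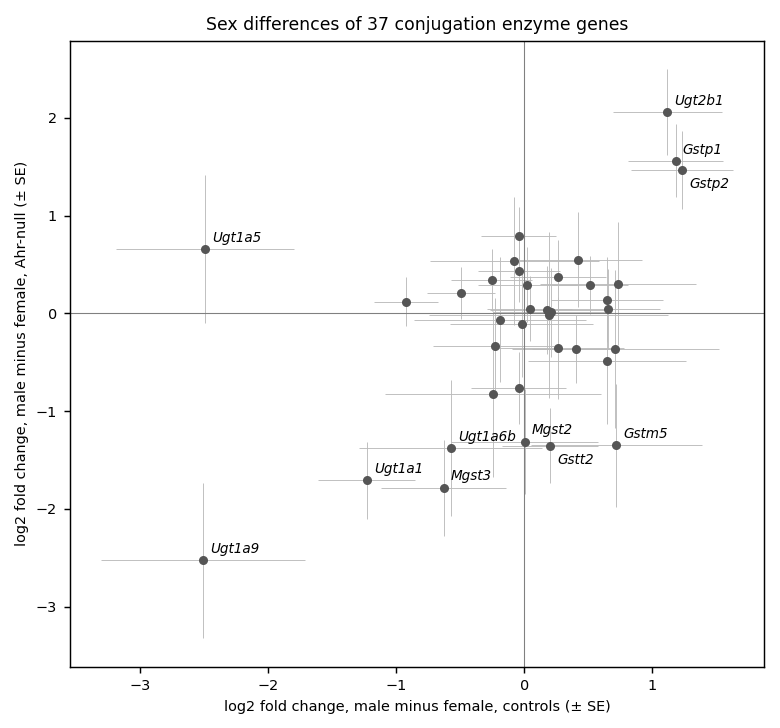
Log2 fold change, male minus female, of the 37 genes in controls (horizontal axis) and in Ahr-null livers (vertical axis), which share no library; bars are standard errors and genes beyond 1 on either axis are named. Ugt2b1, Gstp1 and Gstp2 lie at the upper right, higher in males in both genotypes, Ugt1a1 and Ugt1a9 at the lower left, and Ugt1a5 as far left as Ugt1a9 but above 0 on the vertical axis.

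The male-biased side was led by Gstp1, Gstp2 and Ugt2b1, whose sexes did not overlap in either genotype. Gstp1 differed by 1.18 ± 0.37 (SE, edgeR adjusted p = 0.468) in controls and by 1.56 ± 0.37 (SE, edgeR adjusted p = 0.156) without Ahr. For Ugt2b1 the values were 1.12 ± 0.43 (SE, edgeR adjusted p = 0.692) and 2.06 ± 0.44 (SE, edgeR adjusted p = 0.0914). Leaving out the 2 libraries with neural transcripts, 0.799% of genes were called between the sexes of Ahr-null livers, and Ugt2b1 was the 1 member among them, at 2.49 ± 0.45 (SE, edgeR adjusted p = 0.0269). It was also called without Ahr-null male replicate 1 (0.244% of genes called) or Ahr-null female replicate 1 (0.649%). In controls, 5 of the 7 Ugt2b genes (Ugt2b1, Ugt2b5, Ugt2b35, Ugt2b36 and Ugt2b37) were higher in males without overlap, beside 18.6% of all genes in either direction. Without Ahr this held for Ugt2b1 alone of the 7, beside 11.2%. That count includes Ahr-null female replicate 1. Without the 2 libraries all 7 sex estimates were positive in both genotypes, from 0.13 to 1.07 in controls and from 0.56 to 2.49 in Ahr-null livers.

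The female-biased side held Ugt1a1, with -1.23 ± 0.38 (SE, edgeR adjusted p = 0.455) in controls and -1.71 ± 0.39 (SE, edgeR adjusted p = 0.128) without Ahr, and no overlap in either genotype. Ugt1a9 had -2.51 ± 0.79 (SE, edgeR adjusted p = 0.482) and -2.53 ± 0.79 (SE, edgeR adjusted p = 0.338), from 13 counts in control males and 68 in control females, and 14 and 58 without Ahr (-3.13 and -1.68 without the 2 libraries). Gstt3 was higher in females without overlap among controls (-0.92 ± 0.25, edgeR adjusted p = 0.299), and its sexes overlapped without Ahr (0.12 ± 0.25, edgeR adjusted p = 0.932). Ugt1a5 had -2.49 ± 0.69 (SE, edgeR adjusted p = 0.313) and 0.66 ± 0.76 (SE, edgeR adjusted p = 0.869). Mgst3 and Gstt2 were lower in males without overlap among Ahr-null livers (-1.78 ± 0.49 and -1.35 ± 0.38; SE, edgeR adjusted p = 0.232 and 0.247). Mgst3 had -0.95 ± 0.34 there without the 2 libraries (SE, edgeR adjusted p = 0.225). The sign was the same in both genotypes for 22 of the 37 members, beside 55.0% of all genes, and for 6 of 7 Ugt2b genes.

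Whether loss of Ahr acted differently in males and females was tested as the difference of the genotype effects, which is also the difference of the sex effects. It called 0.00733% of all genes and no member. The smallest adjusted p among members was 0.883, 4 members (10.8%) had an unadjusted p under 0.05, beside 4.6% of all genes, and DESeq2 and limma-voom also called 0. The largest difference was that of Ugt1a5, given above. In males alone no member was called by edgeR or limma-voom, 1 by DESeq2 (Gstm3, beside 0.601% of genes), and 12 (32.4%) had an unadjusted p under 0.05, beside 5.81% of all genes. The groups did not overlap there for 2 members higher (Gstm7 and Gstp3) and 7 lower, beside 13.9% of all genes. In females they did not overlap for 5 higher (Gsta1, Gsta2, Gsta4, Gstm3 and Gstt2) and 4 lower (Gstk1, Gstt3, Ugt1a5 and Ugt2b1), beside 19.1%. The genotype estimates had the same sign in both sexes for 25 of the 37, beside 62.5% of all genes.

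Genes that supply and serve these enzymes were described next to them. Of 16 glutathione supply genes none was called in the averaged comparison, with 10 positive and 6 negative estimates. Gclc, the catalytic subunit of the rate-limiting enzyme of glutathione synthesis, had -0.30 ± 0.18 (SE, edgeR adjusted p = 0.477), and Gss, which completes the tripeptide, 0.67 ± 0.21 (SE, edgeR adjusted p = 0.168). None of 7 genes for UDP-glucuronic acid supply and glucuronide cleavage was called. Ugdh, which makes UDP-glucuronic acid, had 0.16 ± 0.19 (SE, edgeR adjusted p = 0.752). Among 9 conjugate exporters none was called by genotype. Abcg2, an exporter of the bile canaliculus, was higher in males than in females among controls (1.41 ± 0.26, edgeR adjusted p = 0.0401). Abcc3, which carries glucuronides into blood, had -0.66 ± 0.32 (SE, edgeR adjusted p = 0.354).

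Of the 16 regulators listed, 15 were tested and none was called, with 4 positive and 11 negative estimates. The lowest adjusted p was that of Nr1i3, the constitutive androstane receptor, a known activator of several Gst and Ugt genes, at -1.83 ± 0.45 (SE, edgeR adjusted p = 0.0798). Nfe2l2, which encodes NRF2, had -0.27 ± 0.36 (SE, edgeR adjusted p = 0.786), and Nqo1, a target of both NRF2 and AhR, 0.27 ± 0.43 (SE, edgeR adjusted p = 0.825). Of 10 other AhR and NRF2 targets 8 were tested and 2 fell, Cyp1a1 (-2.45 ± 0.40, edgeR adjusted p = 0.0148) and Cyp1a2 (-3.05 ± 0.36, edgeR adjusted p = 0.00663). These lists were, like the members, chosen with earlier results of these data known.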

How the data were processed

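RNA-seq was measured in 12 mouse livers in 4 groups of 3 by genotype and sex, grouped by the labels' source names, and replicate numbers follow accession order and pair nothing. The authors deposited raw whole-number counts per gene, and variance-stabilised values close to a log2 scale that were made with DESeq2 per the file headers. The submitters' processing notes name FastQC 0.11.8, Trim Galore 0.6.5, STAR 2.7.8, DESeq2 1.28.1 and the build GRCm38. Which program counted the reads, whether by strand, and how reads fitting several genes were treated is not given in the sources used here. Overlapping and near-identical genes are therefore uncertain.

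The counts went into edgeR 4.0.16 (R 4.3.3): filterByExpr left 13641 of 27304 genes, libraries were scaled by TMM, and a robust quasi-likelihood model with 4 group means was fitted to all 12 libraries (8 residual degrees of freedom). Tests were two-sided, with Benjamini-Hochberg adjustment over all genes tested and calls at 0.05, and the script was checked on simulated counts. A library's 1 count was worth at most 0.102 CPM of its unscaled total. Levels are CPM after TMM scaling, marker sums are CPM of the unscaled total, and levels per length divide by the exon bases of GENCODE annotation of GRCm38, which matched 41 of 41 members by Ensembl ID. Promoter sequences are from RefSeq (GRCm38.p6). No pair of replicates agreed within counting noise (chi-square per degree of freedom 22.2 to 248), so none was merged.

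The members, the lists and the 2 libraries left out together were chosen with earlier results of these data known. By rule, the text names each member called in any comparison, in each family the most abundant member and those with the lowest p for genotype and for sex in controls, and the members too low to test. Other members named (such as Gsta2, Gsta4, Gstm7, Gstp2, Gstt2, Mgst2, Ugt1a1, Ugt1a9, Ugt3a1 and the rest of Ugt2b) were chosen after their values were seen. Alternatives were RLE scaling, library size alone, other filters and thresholds, DESeq2 1.42.0, limma-voom and limma 3.58.1 on the deposited values, edgeR without robust estimation, and leaving out libraries.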

Additional observations from a re-analysis of the deposited data

How the results depend on the processing

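Counts of called members depended on the fit, and those of all genes are given in brackets. For the genotype effect averaged over the sexes, 2 members (144 genes), library size alone gave 8 (1053), no low-count filter 1 (116), DESeq2 4 (582), limma-voom 1 (119) and limma on the deposited values 1 (169). Without the 2 libraries with neural transcripts it was 7 (432), and with them left out, chosen after seeing the data, 9 (1894) with library size alone and 7 (423) with RLE scaling. Leaving out each library in turn gave 0 to 7 (6 to 663). In males, 0 (5), DESeq2 gave 1 (86). In females, 1 (22), library size alone gave 0 (117), DESeq2 4 (445), leaving out the 2 libraries 3 (235), and leaving out each in turn 0 to 2 (3 to 153). For the sex difference in controls, 0 (48), DESeq2 gave 2 (139). Without Ahr, 0 (38), it gave 6 (210), library size alone 1 (54), an adjusted p under 0.10 1 (69), leaving out the 2 libraries 1 (110), and leaving out each in turn 0 to 1 (11 to 90). The difference between the sexes' genotype effects called 0 members in every fit. Removing a library also removes residual degrees of freedom and the numbers above hold no further check of the cause, which was not tested.

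Of 34 estimates, 20 kept their sign throughout. Library size alone turned 11: averaged over the sexes Gstk1 (0.27), Gsto1 (0.27), Ugt3a2 (0.10) and the sums of Gsta (0.49), Gstk (0.27), Gsto (0.27), Gstt (0.35) and Ugt3a (0.14), and for sex in controls Gstk1 (0.24), Gsto1 (0.0471) and Ugt2a3 (0.0884). The averaged Ugt2a3 estimate turned under limma-voom (-0.14), limma on the deposited values (-0.12), without the 2 libraries (-0.47) and without some single libraries (leaving out each in turn: -0.40 to 0.21), and the Ugt2a sum likewise under limma-voom (-0.14), without the 2 libraries (-0.47) and over single libraries (-0.40 to 0.22). The Mgst sum turned under limma-voom (-0.0171), without the 2 libraries (-0.53) and without Ahr-null female replicate 1 (-0.47; up to 0.74 without others). The Gsta sum turned without some single libraries (-0.25 to 0.0459 over all), and Gstk1 for sex in controls without the 2 libraries (0.0321) and without some single libraries (-0.12 to 0.11 over all). Family sums were not refitted on the deposited values, which cannot be summed. Ugt1a5 had 1 alternative less.

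No paired analysis was possible because replicate numbers follow accession order and the labels pair no mice. There were 3 livers a group and 63 to 359 counts per library over the Ugt1a genes. The lack of edgeR calls in that family therefore does not show that differences are absent. Whether depth or the spread between livers limited the calls was not tested.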

Other observations

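Nr1i3, which encodes the constitutive androstane receptor, was not called but had groups that did not overlap in either sex: 17.3, 32.2 and 39.6 CPM in control males, 8.29, 15.7 and 4.62 CPM in males without Ahr, 65.4, 35.7 and 62.6 CPM in control females and 2.39, 14.9 and 22.9 CPM in Ahr-null females. Over all genes tested, 2.9% had no overlap in both sexes. Pgm1, a sugar phosphate mutase, again had no overlap in either sex. It had 5.56, 5.03 and 5.48 CPM in control males and 7.54, 8.14 and 6.99 CPM in males without Ahr. In females it had 6.01, 6.55 and 5.91 CPM in controls and 18.1, 9.26 and 8.50 CPM without Ahr. Its averaged estimate was 0.72 ± 0.20 (SE, edgeR adjusted p = 0.117). Pgm2, of the same list, went the other way, at -0.29 ± 0.19 (SE, edgeR adjusted p = 0.52).

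Of 10 related transferases whose symbols fall outside the rule, 8 were tested and none was called by genotype with edgeR, with 3 positive and 5 negative estimates. Gstz1, the zeta class enzyme of tyrosine breakdown, measured 366, 396 and 322 CPM in control males, 239, 325 and 251 CPM in males without Ahr, 360.3, 379 and 403 CPM in control females and 154, 231 and 345 CPM in Ahr-null females. Its averaged estimate was -0.53 ± 0.23 (SE, edgeR adjusted p = 0.283), and the males overlapped while the females did not. Hpgds, a sigma class enzyme that makes prostaglandin D, had 0.48 ± 0.24 (SE, edgeR adjusted p = 0.361). Gstcd, Ptges, Ptges2, Ltc4s, Alox5ap and Eef1g had estimates from -0.87 to 0.10.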
